A study of Mus musculus with 24 samples.

Results

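The genes described here are 7 members of the complement system that cells of solid tissues, and not only the liver, are known to express: C3, C4b, Cfb, C1s1, C1ra, Serping1 and Cd55. They were chosen by gene symbol, with earlier results of these data already known. Their values were followed over the 8 combinations of cell type and day that the sample titles give. Of the 7, 6 have a probe set named by the array's annotation table, with 1 probe set each. C3 was not analysed here. The 6 are among 14064 genes tested and 23279 genes named on the array.

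The study followed muscle regeneration in mice. The tibialis anterior, a muscle of the lower leg, was injured with cardiotoxin, a snake venom toxin that destroys muscle fibres, and 2 cell types were sorted by flow cytometry from the digested muscle. Satellite cells, which are muscle stem cells, were taken as cells with alpha7-integrin and with positive or low CD34 that lacked CD45, Sca1 and CD31. Endothelial cells, which line the vessels, were taken as cells with Sca1, CD34 and CD31 that lacked CD45. Satellite cells of days 2, 4 and 8 after injury and of day 0, when the muscle was uninjured, make 4 groups of 3 arrays, and endothelial cells of the same days make the other 4. The strain, sex and age of the mice are not given in the sources used here. The titles call the 3 samples of a group biological replicates and say nothing of separate animals. The p-values set a difference against the spread between such samples, pooled over all 8 groups. Whether that is a spread between animals is not known.

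Complement is a cascade of plasma and surface proteins that tags particles and dying cells for removal. In the classical pathway C1q binds a target, the protease C1r activates the protease C1s, and C1s cleaves C4 and C2 to build an enzyme that cleaves C3. Factor B supplies the protease of the alternative pathway, which amplifies C3 cleavage, while C1 inhibitor stops C1r and C1s, and CD55 takes apart the C3-cleaving enzymes on the cell's own surface.

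All values below are log2 expression values, normalised by the authors with RMA, and a difference of 1 is a doubling. The median over all probe sets lay between 4.11 and 4.40 on the 24 arrays, and arrays of 1 group correlated at 0.863 to 0.957. The words rise and fall are kept for called genes, which are those with an adjusted p under 0.05 and an absolute difference of at least 1. The cell type field of the labels differs from the title in 12 of the 24 samples and the time field in 18, so groups rest on the titles. Pax7, the transcription factor of satellite cells, averaged 9.28 ± 0.52 on the resting satellite arrays and 4.90 ± 0.04 on the resting endothelial arrays (SD, n = 3 each). Pecam1, the gene of CD31, averaged 7.71 ± 0.51 on the satellite arrays and 11.43 ± 0.08 on the endothelial arrays of that day. On day 2 Pax7 averaged 5.17 ± 0.51 on the satellite arrays, against 4.56 ± 0.48 on the endothelial arrays. It averaged 8.46 ± 0.49 on day 4 and 8.13 ± 0.73 on day 8 in the satellite sort. Ptprc, the gene of CD45, averaged 9.17 ± 1.01 in the satellite sort on day 2. Satellite cells and endothelial cells are therefore used below as names of the sorts. A rise or fall given for them is one of the whole sort, whose cells were not told apart. These genes are known as products of stromal cells such as fibroblasts, and markers of such cells were present in the satellite sort on day 0: Dcn, a fibroblast proteoglycan, was at 10.05 ± 0.05 and Pdgfrb, a receptor of pericytes, at 10.37 ± 0.72. Pdgfra, the receptor that defines fibro-adipogenic progenitors, was at 3.03 ± 0.09 and did not pass the filter on low values. Which cells of a sort made the complement transcripts was not tested. Satellite replicate 2 of day 2 stood apart from the other arrays of its group, with a mean over 14 leukocyte genes of 9.37 against 10.84 and 10.65, and results that it decides are also given without it.

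The promoters of the members are shown first, because C1ra and C1s1 lie next to each other on chromosome 6 with 0 protein-coding genes between them and Cd55 behaved differently from both. Of the 6 genes, 3 have an entry in the RefSeq promoter table used here. Each sequence is the 250 bases before a start of transcription, in the direction of the gene, in build GRCm38.p6. C1s1 has 2 starts in that table and the first is printed. It lies at chr6:124542360-124542609 on the minus strand, and the capitals mark a match to the C/EBP motif.
C1s1: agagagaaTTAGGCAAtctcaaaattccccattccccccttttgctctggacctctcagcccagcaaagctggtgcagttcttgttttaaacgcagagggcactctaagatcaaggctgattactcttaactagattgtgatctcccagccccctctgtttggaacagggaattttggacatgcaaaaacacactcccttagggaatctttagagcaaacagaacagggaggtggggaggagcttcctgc
The window before C1ra is chr6:124512371-124512620 on the plus strand.
C1ra: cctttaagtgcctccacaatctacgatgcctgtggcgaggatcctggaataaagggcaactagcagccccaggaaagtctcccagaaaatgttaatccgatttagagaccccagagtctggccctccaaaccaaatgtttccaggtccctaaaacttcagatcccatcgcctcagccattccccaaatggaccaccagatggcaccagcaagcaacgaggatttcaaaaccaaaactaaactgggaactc
The window before Cd55 is chr1:130462745-130462994 on the minus strand.
Cd55: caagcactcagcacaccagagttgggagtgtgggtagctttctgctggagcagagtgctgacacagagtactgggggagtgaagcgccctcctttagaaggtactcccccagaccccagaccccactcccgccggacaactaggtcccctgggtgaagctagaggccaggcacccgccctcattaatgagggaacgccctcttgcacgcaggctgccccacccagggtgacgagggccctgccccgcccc
Both strands of each window were searched for an interferon response element core (GAAANNGAA), an interferon gamma activated site (TTCNNNGAA), a C/EBP motif (TTGCNNAA), an AP-1 motif (TGANTCA) and an NF-kB motif (GGANTTTCC). C1s1 held 1 match, the C/EBP motif on the minus strand between bases -242 and -235 from the start, and these letters occur nowhere in the windows of C1ra and Cd55. Among all 32851 promoters of the same length, 9.564% held the C/EBP motif, 7.129% the interferon element core, 7.02% the activated site, 6.749% the AP-1 motif and 1.065% the NF-kB motif. A match describes letters and not a bound factor. C4b, Cfb and Serping1 have no entry. C4b and Cfb lie on chromosome 17 with 5 protein-coding genes between them, and Cfb lies next to C2, while Serping1 is on chromosome 2.

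C1s1 encodes the protease that cleaves C4 and C2 in the classical pathway. Its probe set was high in resting satellite cells, low on days 2 and 4 and high again on 2 of 3 arrays on day 8. In satellite cells it was at 8.15, 8.85 and 8.48 on day 0, at 3.32, 6.83 and 5.44 on day 2, at 4.13, 5.33 and 5.43 on day 4 and at 5.85, 8.85 and 8.28 on day 8. The arrays of days 2 and 4 all lay below those of day 0, and those of day 8 overlapped day 0. In endothelial cells it was at 5.88, 6.20 and 5.03 on day 0, at 3.66, 2.54 and 2.83 on day 2, at 4.65, 4.70 and 4.61 on day 4 and at 3.18, 6.01 and 3.59 on day 8. The day 2 arrays lay below those of days 0 and 4 and overlapped those of day 8, where replicate 2 lay apart from the others.

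In satellite cells C1s1 fell by 3.30 on the log2 scale on day 2 against day 0 (SE 0.79, adjusted p = 0.00303) and also fell on day 4 (-3.53, adjusted p = 0.00313). The day 2 difference was -4.11 without satellite replicate 2 of day 2 (adjusted p = 0.000472) and -2.36 without replicate 1 (adjusted p = 0.0312). On day 8 the difference from day 0 was -0.83 (SE 0.79, adjusted p = 0.593), and day 8 lay 2.70 above day 4 without being called (adjusted p = 0.0903). That last difference was called without satellite replicate 1 of day 8 (3.60, adjusted p = 0.0124) and without satellite replicate 1 of day 2 (2.70, adjusted p = 0.0471). In a sorted bulk sample, fewer cells of a type and less RNA per cell cannot be told apart, and this holds for every fall and rise given here.

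In endothelial cells C1s1 fell by 2.70 on day 2 against day 0 (SE 0.79, adjusted p = 0.0348). This call was lost without endothelial replicate 1 or 2 of day 0 (adjusted p = 0.0989 and 0.116), without replicate 2 or 3 of day 2 (adjusted p = 0.121 and 0.0911) and with no filter on low genes (adjusted p = 0.0591). The differences on days 4 and 8 were -1.05 and -1.45 and were not called (adjusted p = 0.547 and 0.455). On day 0 satellite cells held 6.90-fold more C1s1 than endothelial cells (2.79 on the log2 scale, SE 0.79, adjusted p = 0.0125), a call lost without endothelial replicate 3 of day 0 (2.45, adjusted p = 0.0595). The cell types differed by 2.19 on day 2 (adjusted p = 0.0675) and by 0.31 on day 4 (adjusted p = 0.855), without a call. The day 2 difference was called without satellite replicate 1 of day 2 (3.13, adjusted p = 0.0117), satellite replicate 1 of day 8 (adjusted p = 0.0378) or endothelial replicate 2 of day 8 (adjusted p = 0.0414), and was 1.37 without satellite replicate 2 of day 2 (adjusted p = 0.296). On day 8 C1s1 was higher in satellite cells by 3.40 (SE 0.79, adjusted p = 0.00351), although endothelial replicate 2 at 6.01 lay above satellite replicate 1 at 5.85. That difference was 4.30 without this satellite array (adjusted p = 0.000573), 4.27 without this endothelial array and 2.80 without satellite replicate 2 (adjusted p = 0.0281). Ranked by group mean, C1s1 was highest in satellite cells of day 0 and then of day 8, and lowest in endothelial cells of day 2, and every pair of neighbours in the order of the 8 groups had overlapping arrays.

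C1ra encodes the protease C1r, which activates C1s. Its group mean was highest in resting satellite cells. In satellite cells it was at 6.61, 5.34 and 5.95 on day 0, at 4.11, 4.91 and 5.08 on day 2, at 5.13, 4.53 and 4.57 on day 4 and at 5.14, 6.02 and 4.39 on day 8. In endothelial cells it was at 4.59, 4.22 and 4.78 on day 0, at 4.13, 4.77 and 4.08 on day 2, at 5.19, 4.80 and 5.79 on day 4 and at 4.59, 5.12 and 5.00 on day 8. All 3 resting satellite arrays lay above the resting endothelial arrays and above the satellite arrays of days 2 and 4, and the endothelial arrays of day 4 lay above those of day 0.

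C1ra fell by 1.27 in satellite cells on day 2 against day 0 (SE 0.38, adjusted p = 0.0164) and also fell on day 4 (-1.22, SE 0.38, adjusted p = 0.0318). Both calls were lost when only the arrays of the compared groups were fitted (adjusted p = 0.0649 on day 2 and 0.0586 on day 4). The day 2 call was lost without satellite replicate 1 of day 0 (-0.94, adjusted p = 0.103) or of day 2 (-0.97, adjusted p = 0.1). The day 4 call was lost without satellite replicate 1 or 3 of day 0 (adjusted p = 0.165 and 0.0703) and without replicate 2 or 3 of day 4 (adjusted p = 0.102 and 0.0961). On day 8 the satellite difference from day 0 was -0.78 (adjusted p = 0.239). In endothelial cells the differences from day 0 were -0.21, 0.73 and 0.37 on days 2, 4 and 8 and none was called. On day 0 C1ra was higher in satellite than in endothelial cells by 1.43 (SE 0.38, adjusted p = 0.00854), a call lost without satellite replicate 1 of day 0 (1.11, adjusted p = 0.0651). On days 2, 4 and 8 that difference was 0.37, -0.52 and 0.28, with overlapping arrays each day. All neighbours in the order of the 8 group means overlapped.

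Serping1 encodes C1 inhibitor, the protease inhibitor that stops C1r and C1s. It was high and even in resting satellite cells, at 10.55, 10.59 and 10.60 on day 0. Satellite cells then had 7.34, 9.37 and 8.20 on day 2, 8.43, 8.52 and 8.64 on day 4 and 9.34, 9.93 and 9.82 on day 8. Every later satellite array lay below every array of day 0, and the day 8 arrays lay between those of day 4 and day 0. Endothelial cells had 7.65, 7.20 and 7.20 on day 0, 7.11, 6.05 and 5.84 on day 2, 7.16, 8.46 and 8.40 on day 4 and 6.28, 7.56 and 6.29 on day 8. The day 2 endothelial arrays lay below all those of days 0 and 4.

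Serping1 fell 4.83-fold in satellite cells on day 2 against day 0 (-2.27 on the log2 scale, SE 0.44, adjusted p = 0.000487) and 4.14-fold on day 4 (-2.05, SE 0.44, adjusted p = 0.00244). Without satellite replicate 2 of day 2 the day 2 difference was -2.81 (adjusted p = 3.28e-05), and without replicate 1 it was -1.79 (adjusted p = 0.00573). The day 8 difference of -0.88 was not called (adjusted p = 0.251). The endothelial differences from day 0 were -1.02 on day 2 (adjusted p = 0.174), 0.66 on day 4 (adjusted p = 0.485) and -0.64 on day 8 (adjusted p = 0.601), none of them called. Endothelial day 4 lay 1.67 above day 2 without overlap, and this was called without satellite replicate 2 of day 2 (adjusted p = 0.0435) and with array weights (1.84, adjusted p = 0.0146). Satellite cells held 9.38-fold more Serping1 than endothelial cells on day 0 (3.23 on the log2 scale, SE 0.44, adjusted p = 9.39e-06), 3.92-fold more on day 2 (1.97, adjusted p = 0.0035) and 7.93-fold more on day 8 (2.99, adjusted p = 4.93e-05). On day 4 the difference was 0.52 with overlapping arrays (adjusted p = 0.499). The day 2 call was lost when only the arrays of those groups were fitted (adjusted p = 0.0788). In the order of group means all 4 satellite groups stood above the endothelial ones, with days 0 and 8, and days 8 and 4, separated without overlap, and all other neighbours overlapped.

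C4b encodes complement C4, the substrate of C1s. Its probe set was above the array's median on 4 of 24 arrays, and its 8 group means spanned 1.13. Those arrays were satellite replicates 1 and 3 of day 2, satellite replicate 1 of day 4 and endothelial replicate 2 of day 4. The filter on low values asks for at least 3 arrays, so C4b was tested only by way of its high satellite arrays of day 2. In satellite cells it was at 4.33, 3.64 and 3.54 on day 0, at 5.13, 3.36 and 5.21 on day 2, at 5.08, 4.27 and 3.51 on day 4 and at 3.79, 3.99 and 3.85 on day 8. The 12 endothelial arrays lay between 2.66 and 4.79. C4b was called in no comparison of the fit over all arrays, and all its neighbours in the order of group means overlapped. The satellite difference of day 2 against day 0 was 0.73 (SE 0.46, adjusted p = 0.26), and it was called without satellite replicate 2 of day 2 (1.33, adjusted p = 0.0208) and with arrays weighted by their quality (1.27, adjusted p = 0.0211). The satellite minus endothelial difference on day 2 was 0.76 (adjusted p = 0.315), and it too was called without that array (1.37, adjusted p = 0.0271) and with array weights (1.15, adjusted p = 0.0466). Leaving out that array keeps only the day 2 satellite arrays by which C4b passed the filter. The calls made without it are therefore no independent support for a higher level on day 2.

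Cfb encodes factor B, the protease component of the alternative pathway. It ran opposite to C1s1 and Serping1 in satellite cells and peaked on different days in the cell types. Satellite cells had 5.43, 4.83 and 4.46 on day 0, 8.18, 6.74 and 8.15 on day 2, 6.83, 6.29 and 5.74 on day 4 and 5.15, 5.25 and 4.88 on day 8. All arrays of days 2 and 4 lay above those of day 0, and day 8 overlapped day 0. Endothelial cells had 5.91, 6.22 and 6.34 on day 0, 5.88, 7.80 and 6.53 on day 2, 8.24, 8.60 and 8.11 on day 4 and 6.71, 6.49 and 6.51 on day 8. The day 4 arrays stood above all other endothelial arrays.

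In satellite cells Cfb rose by 2.79 on the log2 scale on day 2 against day 0 (SE 0.41, adjusted p = 2.49e-05) and by 1.38 on day 4 (SE 0.41, adjusted p = 0.0232). Without satellite replicate 2 of day 2 the day 2 rise was 3.26 (adjusted p = 2.61e-06). The day 4 call was lost without satellite replicate 2 or 3 of day 0 (adjusted p = 0.0658 and 0.103) and without replicate 1 or 2 of day 4 (adjusted p = 0.111 and 0.0578). Day 4 lay 2.65-fold below day 2 (-1.40, adjusted p = 0.0247), with overlapping arrays. That call was lost without satellite replicate 1 or 3 of day 2 (adjusted p = 0.132 and 0.127), without replicate 2 or 3 of day 4 (adjusted p = 0.0635 and 0.13) and in the fit of those groups alone (adjusted p = 0.134). On day 8 the satellite difference from day 0 was 0.19 (adjusted p = 0.841).

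In endothelial cells Cfb rose 4.47-fold on day 4 against day 0 (2.16, SE 0.41, adjusted p = 0.00219). The differences were 0.58 on day 2 (adjusted p = 0.466) and 0.41 on day 8 (adjusted p = 0.747). Day 4 lay 1.58 above day 2 (adjusted p = 0.102) and day 8 lay below day 4 at -1.75 (adjusted p = 0.106), and neither was called. The day 4 against day 2 difference was called without satellite replicate 2 of day 2 (adjusted p = 0.0431), without endothelial replicate 2 of day 2 (2.11, adjusted p = 0.0167) and with array weights (1.53, adjusted p = 0.0263). The day 8 against day 4 difference was called without the same 2 arrays (adjusted p = 0.0485 and 0.0384), with array weights (adjusted p = 0.028) and in the fit of those groups alone (adjusted p = 0.0376).

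Between the cell types, Cfb was lower in satellite cells on day 0 (-1.25, SE 0.41, adjusted p = 0.031), on day 4, where it was 4.09-fold lower (-2.03, adjusted p = 0.00109), and on day 8 (-1.48, adjusted p = 0.0134). On day 2 the difference was 0.95 and was not called (adjusted p = 0.135), but it was called without satellite replicate 2 (1.43, adjusted p = 0.0153) or endothelial replicate 2 of day 2 (1.49, adjusted p = 0.0154) and with array weights (1.20, adjusted p = 0.0275). The day 0 call was lost without satellite replicate 2 or 3 of day 0 (adjusted p = 0.0767 and 0.13) or endothelial replicate 2 or 3 of day 0 (adjusted p = 0.081 and 0.0952). The day 8 call was lost without satellite replicate 3 of day 8 (adjusted p = 0.0525). In the order of group means, endothelial day 4 came first and satellite day 2 second, with overlapping arrays, and satellite days 8 and 0 came last. The arrays of endothelial day 0 and satellite day 8 did not overlap, and all other neighbours did.

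Cd55 encodes decay-accelerating factor, which takes apart the C3-cleaving enzymes on the cell that carries it. It was called lower in the satellite sort on days 0, 2 and 4, and within a cell type it was called on no later day against day 0. Satellite cells had 4.66, 4.26 and 4.38 on day 0, 4.70, 4.38 and 3.98 on day 2, 3.98, 4.41 and 4.37 on day 4 and 4.88, 4.41 and 4.27 on day 8, all close to the array medians. Endothelial cells had 5.10, 5.71 and 6.45 on day 0, 5.58, 5.97 and 4.96 on day 2, 5.66, 7.00 and 6.27 on day 4 and 4.95, 5.65 and 5.58 on day 8. On each day all 3 satellite arrays lay below all 3 endothelial arrays.

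The satellite minus endothelial difference of Cd55 was -1.32 on day 0 (SE 0.35, adjusted p = 0.00823), -1.15 on day 2 (adjusted p = 0.0297) and -2.06 on day 4 (adjusted p = 0.000207). On day 8 the difference was -0.87 and was not called (adjusted p = 0.0946). The day 0 call was lost without endothelial replicate 3 of day 0 (-0.97, adjusted p = 0.0685). The day 2 call was lost without endothelial replicate 1 or 2 of day 2 (adjusted p = 0.0779 and 0.15), without satellite replicate 2 or 3 of day 2 (adjusted p = 0.0512 and 0.138) and in the fit of those groups alone (adjusted p = 0.0805). Differences from day 0 ran between -0.18 and 0.09 in satellite cells and between -0.36 and 0.56 in endothelial cells. The 4 endothelial group means stood above the 4 satellite means, endothelial and satellite day 8 did not overlap, and all other neighbours in the order did.

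**Figure D1:**
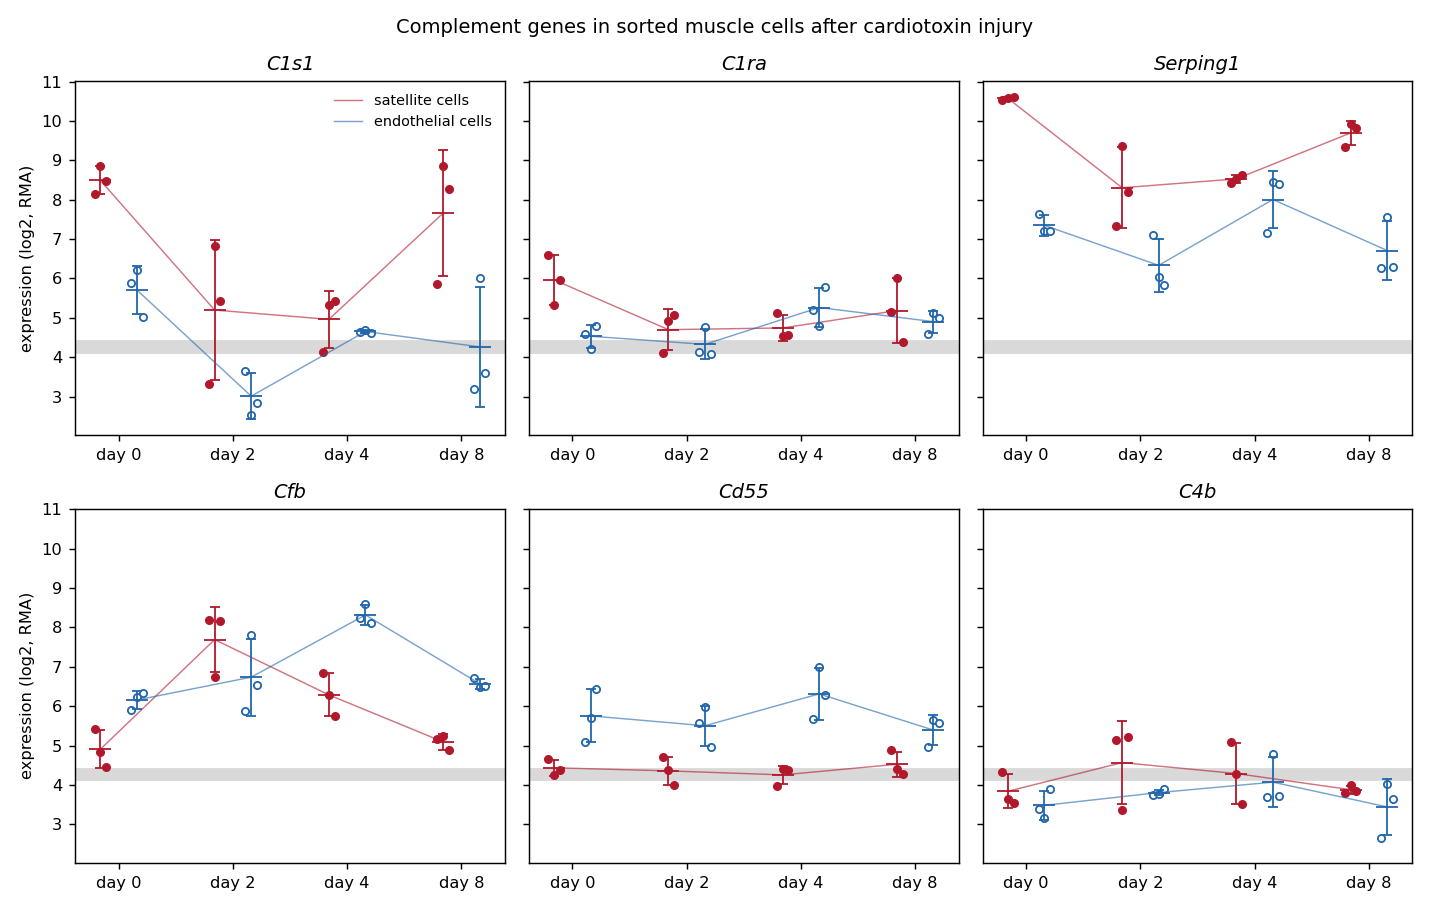
Log2 expression of the 6 complement genes on each array, by day after injury, with filled points for satellite cells, open points for endothelial cells, horizontal bars, joined by lines, for group means and vertical bars for the SD over 3 arrays. The grey band spans the array medians, 4.11 to 4.40, and satellite Serping1 is seen at 10.55 to 10.60 on day 0 and 7.34 to 9.37 on day 2.

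Counted over the 6 members, satellite cells of day 2 against day 0 had 1 called up (Cfb) and 3 called down (C1s1, C1ra and Serping1), where 20.5% of all tested genes were called. The median member difference was -0.67, against -0.03 over all genes. Without satellite replicate 2 of day 2 the count was 5, with C4b added, which had passed the filter by way of the day 2 arrays that remain. On day 4 against day 0 the same 4 members were called in the same directions, where 12% of all genes were called, and the median was -0.70 against 0.01. On day 8 against day 0 limma called 0 members, 0 had an unadjusted p under 0.05, and 6.38% of all genes were called. From day to day, 1 member was called for day 4 against day 2 (Cfb), where 10.5% of all genes were called. For day 8 against day 4 limma called 0, with 3 at an unadjusted p under 0.05 (Cfb, C1s1 and Serping1) and 1.68% of all genes called. Here and below, shares of all genes are of called genes. The share of all genes at an unadjusted p under 0.05 was not computed, so counts at that threshold have no background beside them. The 3 comparisons with day 0 share its arrays and are not independent of each other.

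In endothelial cells 1 member was called on day 2 against day 0 (C1s1, down), where 6.73% of all genes were called, and the median was -0.23 against -0.01. On day 4 against day 0 the 1 called member was Cfb, up, where 5.33% of all genes were called, and the median was 0.62 against -0.02. On day 8 against day 0 limma called 0 members with 0 at an unadjusted p under 0.05, and 2.05% of all genes were called. For day 4 against day 2 limma called 0 members, where 0.37% of all genes were called, and the median was 1.26 against -0.01. At the looser threshold of an unadjusted p under 0.05 there were 5 members (all but C4b), with no share of all genes computed. For day 8 against day 4 limma called 0 members, 3 had an unadjusted p under 0.05 (Cfb, Serping1 and Cd55), the median was -0.77 against 0.01, and 0.121% of all genes were called.

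**Figure D2:**
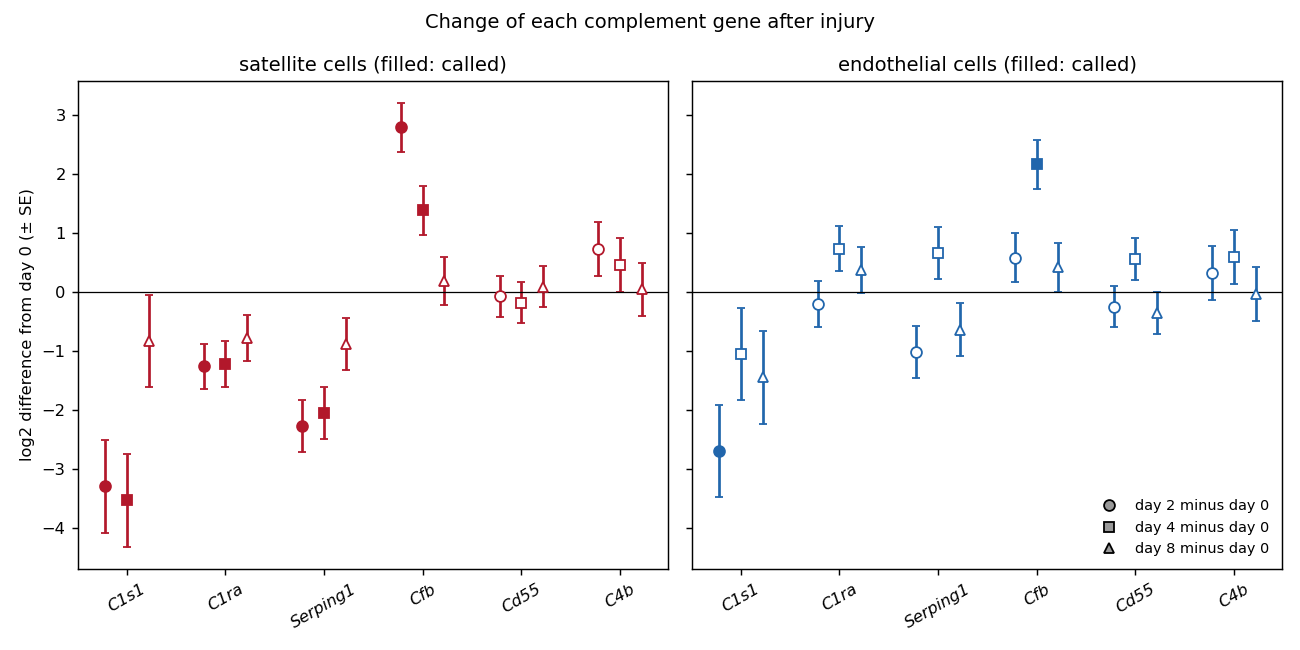
Log2 difference of each complement gene from day 0 with its SE, satellite cells on the left and endothelial cells on the right, with circles, squares and triangles for days 2, 4 and 8 and filled symbols for called differences. C1s1, C1ra and Serping1 lie below 0 in satellite cells on days 2 and 4 while Cfb lies above it, and endothelial Cfb on day 4 is at 2.16.

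Satellite against endothelial cells, 5 of 6 members were called on day 0, with Serping1, C1s1 and C1ra higher and Cfb and Cd55 lower in satellite cells, where 17% of all genes were called. On day 2 the 2 called were Serping1, higher, and Cd55, lower, where 12.1% of all genes were called. On day 4 Cfb and Cd55 were called, both lower, and 12.9% of all genes were called. On day 8 the 3 called were Serping1 and C1s1, higher, and Cfb, lower, where 13.9% of all genes were called.

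**Figure D3:**
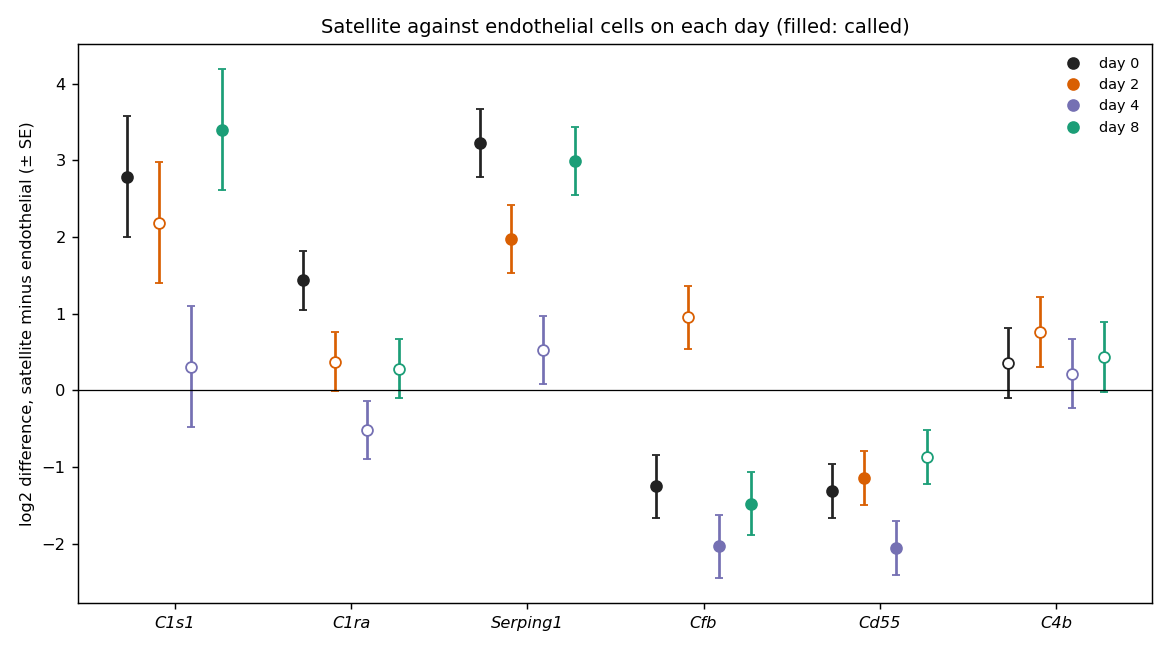
Log2 difference between satellite and endothelial cells for each complement gene on days 0, 2, 4 and 8 with its SE, filled where called. Serping1 lies at 3.23, 1.97, 0.52 and 2.99 on the 4 days, and Cd55 lies below 0 on each.

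The response itself was compared between the cell types as an interaction, the satellite change from day 0 minus the endothelial change. On day 2 the 1 member called was Cfb (2.21, SE 0.58, adjusted p = 0.016), where 11.5% of all genes were called. It was lost in the fit of those groups alone (adjusted p = 0.0708) and without satellite replicate 1 or 3 of day 2 (adjusted p = 0.0508 and 0.0504) or endothelial replicate 1 of day 2 (1.78, adjusted p = 0.05). The day 2 value of Serping1 was -1.26 (adjusted p = 0.225), and it was called without satellite replicate 2 of day 2 (-1.79, adjusted p = 0.0359). On day 4 the 2 called were Serping1 (-2.71, SE 0.63, adjusted p = 0.0137) and C1ra (-1.95, SE 0.54, adjusted p = 0.0439), where 4.24% of all genes were called. C1s1 on day 4 was at -2.48 (adjusted p = 0.268), and was called in the fit of those groups alone (adjusted p = 0.0178). C1ra held its call in 20 of 35 settings tried, with adjusted p up to 0.122. On day 8 limma called 0 members, 1 had an unadjusted p under 0.05 (C1ra), and 2.2% of all genes were called.

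The members were compared with each other as a description. Over the 8 group means C1s1 and Serping1 correlated at 0.92, and over the 24 arrays after subtracting group means at 0.76. C1ra correlated with C1s1 at 0.77 and with Serping1 at 0.81 over group means, but at 0.14 and 0.21 within groups. The adjacent genes C1ra and C1s1 thus correlated over the 8 group means and hardly within groups. Their endothelial differences from day 0 had opposite signs on days 4 and 8, at 0.73 and 0.37 for C1ra and -1.05 and -1.45 for C1s1. None of these was called. Cfb ran against C1s1 at -0.71 and against Serping1 at -0.55 over group means, and at -0.50 and -0.52 within groups. C4b and Cfb correlated at 0.40 over group means and 0.61 within groups. All these values share arrays, their normalisation and whatever mixture of cells each sort held.

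For each member the 3 tested genes with the most similar pattern over the 8 group means were listed by Pearson's r. For C1s1 they were Ggt5 (0.98), the collectin scavenger receptor gene Colec12 (0.98) and Myl9, a smooth muscle myosin light chain (0.98). For Serping1 they were Pdxp (0.99), Cystm1 (0.97) and E030011O05Rik (0.97). For C1ra they were Kcnk3 (0.97), A430018G15Rik (0.96) and Fxyd2 (0.96). Cfb was most like Olfr56 (0.97), Dhx58, an RNA sensor gene induced by interferon (0.97), and Csf2rb2, a cytokine receptor subunit of blood cells (0.96). C4b was called in no comparison of the fit over all arrays, and its group means spanned 1.13. It was most like Lyz1, a lysozyme gene (0.98), Tifab (0.98) and the transcription factor gene Maf (0.97). Cd55 was most like Pde9a (0.98), Snx11 (0.98) and Zfp358 (0.97).

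Markers of several cell types moved on the same arrays, and their values stand here beside the members. The shares of all tested genes called against day 0 belong beside the counts that follow. They were 20.5%, 12% and 6.38% in satellite cells on days 2, 4 and 8, and 6.73%, 5.33% and 2.05% in endothelial cells. The mean over 10 satellite cell genes lay at 8.53 to 8.74 in the satellite sort on day 0, 5.03 to 5.31 on day 2, 6.84 to 7.57 on day 4 and 7.40 to 8.28 on day 8. Of these genes 0 rose and 9 fell on day 2 against day 0, 1 rose and 3 fell on day 4, and 0 rose and 3 fell on day 8. The mean over 10 endothelial genes lay at 6.35 to 6.58 in the satellite sort on day 0, 6.85 to 8.79 on day 2, 6.94 to 7.72 on day 4 and 7.07 to 8.22 on day 8, with 5, 4 and 5 risen and 0 fallen on days 2, 4 and 8. The mean over 8 genes of mature muscle fibres lay at 7.02 to 7.49 in the satellite sort on day 0, 6.95 to 8.39 on day 2, 7.78 to 8.56 on day 4 and 7.98 to 10.5 on day 8. Of these 8, 0, 3 and 6 rose in the satellite sort on these days and 0 fell, while in the endothelial sort 4 fell on day 2 and 1 on day 4. Within groups, over 24 arrays, C1s1 correlated with the endothelial mean at 0.56 and with the muscle fibre mean at 0.61, and Serping1 at 0.52 and 0.34 with the same lists. The part of these cells in the member differences was not tested.

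Cells of the vessel wall and connective tissue were counted in the same way. The mean over 10 pericyte and smooth muscle genes lay at 9.60 to 10.4 in satellite cells on day 0, 6.52 to 8.19 on day 2, 7.00 to 7.31 on day 4 and 8.57 to 9.34 on day 8. In satellite cells 0 of these genes rose and 10 fell on day 2 against day 0, and 0 rose and 8 fell on day 4. C1s1, C1ra and Serping1 had their highest satellite group mean on day 0, as did the satellite cell list and this list. In endothelial cells the mean lay at 7.08 to 7.98 on day 0, 5.56 to 6.81 on day 2, 5.27 to 6.62 on day 4 and 6.01 to 6.22 on day 8, and 0 rose with 4 falling on day 2 and 5 on day 4. Endothelial Serping1 had its highest group mean on day 4, where this list was low, but limma did not call that day against day 0 (0.66, adjusted p = 0.485). The part of pericytes in endothelial Serping1 was not tested.

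The mean over 13 fibroblast genes lay at 6.80 to 6.98 in satellite cells on day 0 and 5.64 to 6.11 on day 2, 6.30 to 6.68 on day 4 and 6.71 to 7.25 on day 8. On day 2 against day 0, 2 of the 13 rose and 7 fell, among them Dpt, a matrix protein (-5.34, adjusted p = 2.44e-07), and Dcn (-2.17, adjusted p = 0.00232). In endothelial cells the fibroblast mean lay at 4.42 to 4.57 on day 0, 4.42 to 4.71 on day 2, 5.26 to 5.62 on day 4 and 5.29 to 5.91 on day 8. Within groups, over 24 arrays, C1s1 correlated with the fibroblast mean at 0.78 and with the pericyte mean at 0.62, and Serping1 at 0.54 and 0.80 with the same 2 lists. Cfb correlated with the pericyte mean at -0.75. The part of these cells in the falls of C1s1, C1ra and Serping1 was not tested.

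Leukocyte genes rose although both sorts excluded CD45. The mean over 14 such genes lay at 3.66 to 4.33 in satellite cells on day 0, 9.37 to 10.8 on day 2, 6.98 to 8.19 on day 4 and 5.39 to 6.65 on day 8. In endothelial cells it lay at 4.04 to 4.13, 6.37 to 8.56, 6.13 to 8.13 and 4.82 to 5.74 on days 0, 2, 4 and 8. Ptprc, the gene of CD45, averaged 9.17 ± 1.01 on day 2 and 2.97 ± 0.16 on day 0 in satellite cells. All 14 rose in satellite cells on day 2 and 12 on day 4, and 10 rose in endothelial cells on each of these days. Satellite replicate 2 of day 2, at 9.37, was lowest of its group on this list, and it was also lowest for Cfb and C4b and highest for C1s1 and Serping1. The same array was highest of its group on the pericyte list (8.19), the endothelial list (8.79) and the fibroblast list (6.11). These lists cannot be told apart by this array. In endothelial cells replicate 1 of days 2 and 4 was highest on the leukocyte list at 8.56 and 8.13. Cfb on these arrays was at 5.88 and 8.24, the lowest and the middle value of its group. Within groups Cfb correlated with the leukocyte mean at 0.01 over 24 arrays. The part of leukocytes in the rise of Cfb was not tested.

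Factor B is known as a gene that interferon gamma and acute phase signals can induce, so genes of both responses were counted from fixed lists of symbols. Of 18 tested interferon response genes 12 rose and 0 fell in satellite cells on day 2 against day 0, with a median of 2.09, among them Irf7, a transcription factor of the response (4.22, adjusted p = 3.14e-06), Rsad2, an antiviral enzyme gene (3.71, adjusted p = 5.56e-07), Oasl2 (3.30, adjusted p = 1.02e-05), Mx1 (3.30, adjusted p = 1.26e-05) and Usp18 (3.08, adjusted p = 1.74e-05). On day 4 6 rose and 0 fell. In endothelial cells limma called 0 of the 18 on day 2 and 0 on day 4, with 1 and 0 of them at an unadjusted p under 0.05. The list mean there lay at 7.10 to 8.90 on day 0, 6.88 to 7.80 on day 2 and 7.70 to 8.24 on day 4. In satellite cells it lay at 5.43 to 5.54 on day 0 and 7.43 to 7.69 on day 2. Endothelial replicate 3 of day 0 stood apart with a list mean of 8.90 against 7.16 and 7.10. Of 18 tested acute phase and NF-kB genes 11 rose and 1 fell in satellite cells on day 2, among them the cytokine genes Il1b (7.54, adjusted p = 2.9e-08) and Tnf (5.14, adjusted p = 2.75e-07). In endothelial cells 4 rose and 1 fell on day 2, and 5 rose and 1 fell on day 4. Those risen on day 4 included Il6, a cytokine that induces acute phase genes (4.73, adjusted p = 6.6e-06), and Ccl2, a chemokine (4.67, adjusted p = 5.7e-07). Il6 also rose on day 2 (3.15, adjusted p = 0.000515). Within groups, over 24 arrays, Cfb correlated with the interferon mean at 0.40 and with the acute phase and NF-kB mean at -0.001. The part of either response in the rises of Cfb was not tested.

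**Figure D4:**
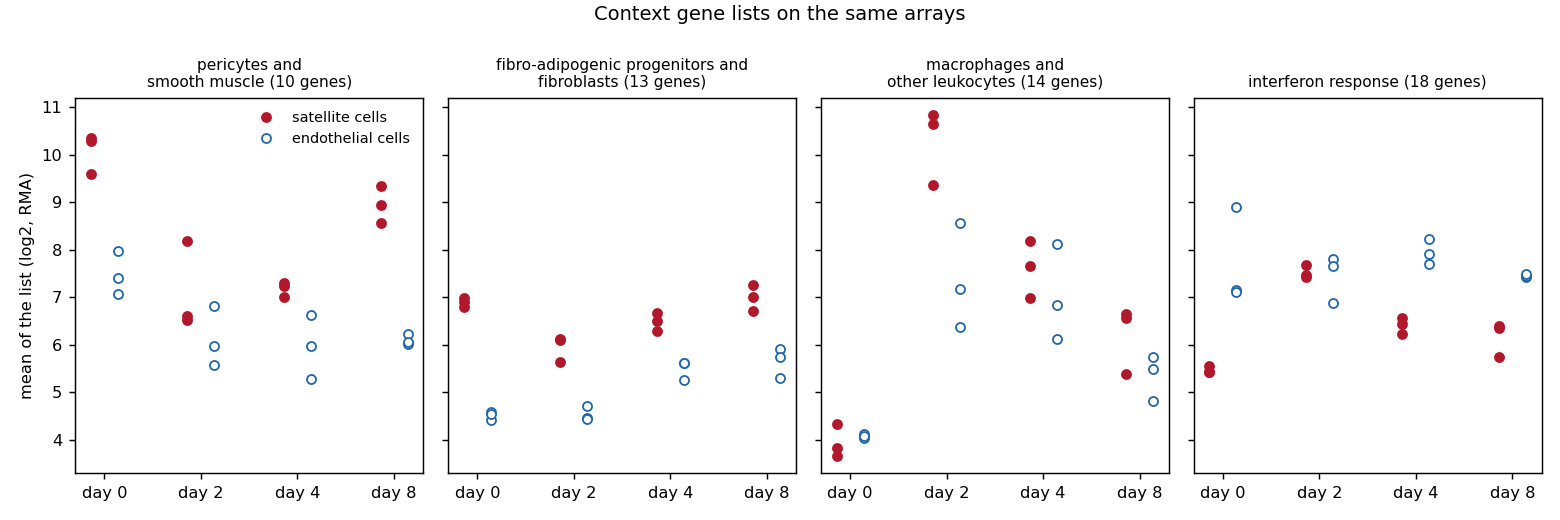
Mean log2 expression on each array over the pericyte and smooth muscle, fibroblast, leukocyte and interferon response lists, by day, with filled points for satellite and open points for endothelial cells. The satellite arrays of day 2 lie at 9.37 to 10.8 on the leukocyte list, and those of day 0 at 3.66 to 4.33.

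The rest of the complement system was counted from a list of 56 further genes, of which 51 are named on the array and 25 passed the filter on low values. In satellite cells 10 rose and 4 fell on day 2 against day 0, 6 rose and 4 fell on day 4, and 5 rose and 2 fell on day 8. Of all tested genes 20.5%, 12% and 6.38% were called in these comparisons. In endothelial cells 4 rose and 2 fell on day 2, 4 rose and 1 fell on day 4, and 0 rose and 1 fell on day 8. The shares of all tested genes there were 6.73%, 5.33% and 2.05%. Of the 7 named genes of the terminal pathway, which forms the membrane pore, 0 passed the filter.

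Among initiators of the classical pathway, C1qa, C1qb and C1qc, which encode the 3 chains of C1q and are known as macrophage genes, all rose in satellite cells on day 2 against day 0, by 2.80 for C1qa (adjusted p = 0.000148), 4.59 for C1qb (adjusted p = 1.88e-05) and 3.17 for C1qc (adjusted p = 0.000237). They were also called on days 4 and 8 in satellite cells and on day 4 in endothelial cells, where C1qb rose by 3.43 (adjusted p = 0.00242). The C1q genes and the protease genes C1ra and C1s1 moved in opposite directions in satellite cells on days 2 and 4. C2, whose product forms the C3-cleaving enzyme with C4, was at 3.16 ± 0.11 on day 2 and 5.52 ± 0.06 on day 0 in satellite cells and fell by 2.36 (SE 0.28, adjusted p = 1.69e-06). It stayed lower on day 4 (-2.01) and day 8 (-1.92, adjusted p = 0.000106), while its neighbour Cfb rose on days 2 and 4. In endothelial cells C2 lay between 2.77 and 3.29 on all arrays, below the array medians. Its satellite arrays of days 2 and 4 reached at most 3.28 and 4.09, also below the medians, and those of day 8 reached 4.45. C2 thus passed the filter on low values only by way of the resting satellite arrays. A lower value in the other groups was built into its being tested, so its falls are no independent result. Colec11, a lectin pathway recognition gene, fell in satellite cells on days 2, 4 and 8 (-2.48, -2.14 and -1.92), and Colec12 on days 2 and 4 (-1.90 and -1.61).

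Among regulators and receptors, Vtn, the gene of vitronectin, which keeps the membrane pore from forming, fell by 4.14 in satellite cells on day 2 (adjusted p = 3.58e-05) and also fell on day 4 (-4.64, adjusted p = 2.26e-05). In endothelial cells it fell on days 2, 4 and 8 (-3.12, -3.52 and -3.25). Cfp, the gene of properdin, which stabilises the alternative pathway enzyme, rose by 3.36 in satellite cells on day 2 (adjusted p = 2.1e-05) and was not called on day 4, when Cfb still was. Of 9 receptor genes 6 rose and 0 fell in satellite cells on day 2, among them the anaphylatoxin receptors C3ar1 (6.11) and C5ar1 (5.74) and the subunits Itgam (5.76) and Itgb2 (5.25) of complement receptor 3. Itgam, a leukocyte integrin, was not called on day 4. Like Cd55, the membrane regulator Cr1l, known in rodents as Crry, was lower in satellite than in endothelial cells on day 0 (-1.17, adjusted p = 0.00162) and on day 4 (-1.31, adjusted p = 0.000806). Cd59a, which blocks the pore, was lower in satellite cells on day 4 (-2.20, adjusted p = 0.00703), as was the soluble regulator Clu (-3.10, adjusted p = 3.29e-05).

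**Figure D5:**
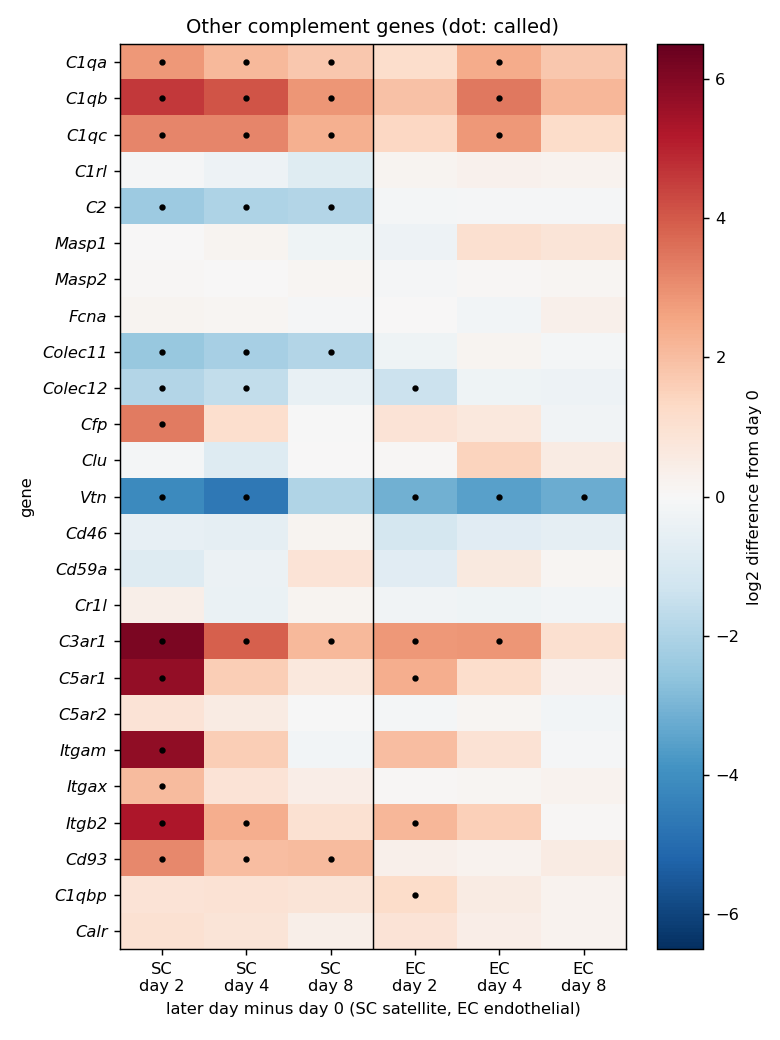
Log2 difference from day 0 of the 25 other complement genes tested, with a column for each later day in satellite cells (SC, left) and endothelial cells (EC, right), red for higher and blue for lower on the later day and a dot where called. C3ar1 reaches 6.11 in satellite cells on day 2 and Vtn -4.64 on day 4.

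C4b, C1s1, C1ra and Cd55 each have a close copy in the mouse genome, C4a, C1s2, C1rb and Cd55b, with its own probe set. Of the 4 copies 0 passed the filter, and their group means were at most 3.54, on satellite day 0 for C1rb. How far the probes of a member also bind its copy was not tested.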

How the data were processed

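RNA was amplified from picogram amounts and hybridised to single-colour arrays, 1 per sample. The authors' deposited values are on the log2 scale and come from RMA, per the submitters' processing notes, which give no version. They cover 24479 probe sets, and such summaries can compress differences near background. Groups follow the sample titles, and all 24 columns matched a sample. Gene symbols came from the platform's annotation table, and 1198 probe sets have no symbol.

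Probe sets above their array's median on at least 3 arrays were kept, which left 14064 genes. The model, fitted to all arrays at once with limma 3.58.1 under R 4.3.3, had a mean for each group, which leaves 16 residual degrees of freedom, and variances were moderated with eBayes. It was tested on simulated data. Tests were two-sided with Benjamini-Hochberg adjustment over all genes within each of 17 comparisons. Calls need an adjusted p under 0.05 and an absolute difference of at least 1. No fold is printed where the dimmer group averages less than 1 above the medians of the arrays. The number of arrays limits the precision. Named genes were the members, the 3 genes most like each, and called genes of fixed lists, largest differences first. Members and lists were chosen with earlier results of these data known. Alternatives were other filters, normalisations, weights, models, replicate blocks and leaving out each array.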

Additional observations from a re-analysis of the deposited data

Results flagged for a closer look

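In 3 cases the change after injury differed between the cell types by an interaction test in limma. The satellite change of Cfb from day 0 to day 2 exceeded the endothelial change by 2.21 (adjusted p = 0.016). On day 4 the satellite change fell short of the endothelial change at -1.95 for C1ra (adjusted p = 0.0439) and at -2.71 for Serping1 (adjusted p = 0.0137). Serping1 held its call in all 35 settings tried, Cfb in 31 and C1ra in 20. The part of other cell types in these differences was not tested.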

How the results depend on the processing

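The 102 member differences were recomputed under 35 settings, except that C4b was not tested where genes had to lie above the median on at least 6 arrays. Of 26 called, 12 kept their call in every setting: in satellite cells C1s1 and Serping1 on days 2 and 4 and Cfb on day 2 against day 0, Cfb in endothelial cells on day 4, Serping1 on days 0 and 8, C1s1 on day 8 and Cfb and Cd55 on day 4 between the cell types, and the day 4 interaction of Serping1. Of 3553 recomputed differences 45 had the other sign, and 0 of these were called. In the fit of the compared groups alone the number of members called was 0 for satellite day 4 against day 2, 1 for endothelial day 8 against day 4, 0 between the cell types on day 2 and 0 for the day 2 interaction. With array weights it was 1 for satellite day 8 against day 4, 2 for endothelial day 4 against day 2, 1 for endothelial day 8 against day 4 and 4 between the cell types on day 2. With no filter it was 0 for endothelial day 2 against day 0 and 1 for the day 4 interaction. With the title number as a fixed replicate block it was 1 for satellite day 8 against day 4 (C1s1) and 1 for the day 4 interaction, where C1ra lost its call (adjusted p = 0.0601), and C1s1 between the cell types on day 2 was called (adjusted p = 0.0293). A random replicate block of day and the number in the array labels, which a satellite and an endothelial array share in 11 of 12 pairs, had a consensus correlation of 0.05 and changed no member call. Pairs of a day with the same title number correlated at -0.06 to 0.20, over 0.1 in 4 of 12, so the numbers were not treated as pairs.

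Leaving out each array in turn gave counts of 3 to 5 (satellite day 2 against day 0), 2 to 4 (day 4), 0 to 1 (day 4 against day 2) and 0 to 1 (day 8 against day 4). In endothelial cells it gave 0 to 1 (day 2 against day 0), 0 to 2 (day 4 against day 2) and 0 to 1 (day 8 against day 4). Between the cell types it gave 2 to 5 on day 0, 1 to 3 on day 2 and 2 to 3 on day 8, and for the interaction 0 to 2 on day 2 and 1 to 2 on day 4. The counts for satellite day 8 against day 0 (0), endothelial days 4 (1) and 8 (0) against day 0, day 4 between the cell types (2) and the day 8 interaction (0) were unchanged by leaving out any 1 array. Values near the array medians, as for C4b, satellite Cd55 and the low groups of C1s1, limit the precision.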
